A study of Mus musculus with 16 samples.

Results

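Microvillus and brush border genes were examined in mouse liver: 10 genes whose products bundle the actin core of a microvillus, tie it to the membrane or link neighbouring microvilli to each other (Pls1, Avil, Vil1, Espn, Eps8, Ezr, Myo7b, Ush1c, Cdhr2 and Cdhr5). The genes were taken by symbol, as a fixed list, from 35712 genes in all. The members were chosen by function with the differences between LKO and WT already known in these data, so the values of its members in that comparison are a description and are given without p-values. Of the 10 genes, 6 were in the deposited counts table of 15119 genes, and Avil, Vil1, Ush1c and Cdhr2 were taken from a second deposited table of 35712 genes. A filter on low counts was passed by 8 of the 10. Vil1 and Ush1c did not pass it, and only their counts are given.

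The study profiled poly(A) RNA of whole liver from female mice, either wild type (WT) or with a hepatocyte knockout of Arglu1 (labelled LKO). Arglu1 encodes a nuclear protein known as a transcriptional coactivator and modulator of RNA splicing. All mice were aged to 9 months on chow and then either stayed on chow or spent 12 weeks on the high-fat diet TD. 88137 (HFD). The 4 groups were WT on chow, LKO on chow, WT on HFD and LKO on HFD, with 4 libraries each and 16 in all. The labels do not name the Cre driver or the deleted part of Arglu1, and they do not say whether each library is a separate animal, so the p-values measure the spread between libraries.

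Microvilli are finger-like protrusions of the apical membrane, each supported by a bundle of parallel actin filaments. In the intestine and the kidney tubule they are packed into a brush border, where the bundlers villin, plastin and espin hold the core together. There, protocadherins at the tips, CDHR2 and CDHR5, bind to each other and are anchored inside the cell by a complex that includes the scaffold harmonin (Ush1c) and the motor myosin VIIb (Myo7b). In liver, hepatocytes carry microvilli on the bile canaliculus and on the surface facing the sinusoid, and bile duct cells carry apical microvilli.

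The promoters of the 3 genes of the list with the largest fold changes that have an entry in the promoter table (Avil, Pls1 and Cdhr2) are shown with that of Cdhr5, the most abundant member. Each is the 250 bases before the RefSeq start on GRCm38.p6, read on the gene's own strand. Avil lies at chr10:127000459-127000708 on the + strand, Pls1 at chr9:95845280-95845529 on the - strand, Cdhr2 at chr13:54701213-54701462 on the + strand and Cdhr5 at chr7:141276787-141277036 on the - strand. Capitals mark a match to a searched motif.
Avil: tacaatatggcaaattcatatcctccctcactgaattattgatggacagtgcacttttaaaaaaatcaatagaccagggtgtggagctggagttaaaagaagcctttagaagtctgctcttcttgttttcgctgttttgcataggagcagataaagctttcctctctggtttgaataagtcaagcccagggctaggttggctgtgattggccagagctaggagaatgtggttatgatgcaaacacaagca
Pls1: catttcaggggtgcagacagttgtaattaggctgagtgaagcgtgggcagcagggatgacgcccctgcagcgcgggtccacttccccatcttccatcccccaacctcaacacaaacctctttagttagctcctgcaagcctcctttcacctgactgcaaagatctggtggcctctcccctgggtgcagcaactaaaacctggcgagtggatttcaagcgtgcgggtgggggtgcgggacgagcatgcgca
Cdhr2: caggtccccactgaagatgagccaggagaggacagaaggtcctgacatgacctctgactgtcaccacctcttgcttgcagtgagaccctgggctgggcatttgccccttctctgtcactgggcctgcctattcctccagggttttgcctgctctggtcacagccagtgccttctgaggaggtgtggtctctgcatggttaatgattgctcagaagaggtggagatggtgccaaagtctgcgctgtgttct
Cdhr5: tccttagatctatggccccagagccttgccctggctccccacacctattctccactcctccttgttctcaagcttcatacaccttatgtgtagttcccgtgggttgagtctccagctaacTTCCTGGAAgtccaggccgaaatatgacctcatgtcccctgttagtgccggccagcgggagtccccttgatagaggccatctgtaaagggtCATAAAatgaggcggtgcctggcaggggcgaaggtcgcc
The motifs were searched on both strands and no matches overlapped. The TATA box was searched as TATAAA and the E-box as CACGTG. The letters TTCNNNGAA were used for STAT factors, and CAAAGTCCA for the hepatocyte nuclear factor HNF4. The intestinal CDX factors were searched as TTTATG. None of the 5 was found in the windows of Avil, Pls1 and Cdhr2. The Cdhr5 window held a STAT match whose first letter lies 130 bases before the start and a CDX match 39 bases before it, both in capitals above. Over the 8 members with an entry, which have 10 promoters, the STAT letters were in 1 gene (Cdhr5) and the CDX letters in 2 (Cdhr5 and Espn). Of all 32851 promoters of the same length, 7.02% held the STAT letters and 10.8% the CDX letters. The shares were 12.4% for the TATA box, 6.02% for the E-box and 0.384% for HNF4, and none of these was in a member's promoter. A match is a description of the letters, and its absence says only that the letters are not in this window. The windows also differed in base composition. The GC content was 42.0% for Avil, 58.0% for Pls1, 56.0% for Cdhr2 and 55.6% for Cdhr5, against a median of 52.4% over all promoters. CpG dinucleotides numbered 1 in Avil, 10 in Pls1, 1 in Cdhr2, 7 in Cdhr5 and 32 in Ezr, against a median of 6.

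Total counts ran from 19142612 to 25120565 per library. Levels are given as CPM, counts scaled to a common library size. Arglu1 was at 41.2 ± 2.62 CPM in WT on chow and 14.7 ± 1.56 in LKO on chow, and at 42.2 ± 1.70 and 15.5 ± 1.53 on HFD (SD, n = 4), and the genotypes did not overlap. On the second principal component, which held 13.8% of the variance, LKO chow libraries 3 and 4 stood at 38.1 and 34.7 and libraries 1 and 2 at -10.7 and -11.1. The members' fold changes and the counts of called genes that use LKO livers on chow are therefore also given without either pair. The 6 hepatocyte markers summed to 98008 to 131054 CPM in WT and 114259 to 127729 in LKO on chow. On HFD they summed to 72226 to 78838 in WT and 85135 to 103607 in LKO, without overlap. Most of the HFD sum was Alb, with means of 49709 CPM in WT and 74383 in LKO. At an edgeR adjusted p below 0.05 on HFD, Alb was higher in LKO, and Trf and Ttr were lower. Apoa1, Cps1 and Hnf4a did not pass. Whole liver holds several cell types, and in such samples more cells of a type and more RNA per cell cannot be told apart.

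In LKO livers, 7 of the 10 genes stood above WT on both diets, with no overlap between the libraries of the genotypes: Pls1, Avil and Espn among the bundlers, Eps8 at the tip, and Myo7b, Cdhr2 and Cdhr5 of the adhesion complex. The share of all genes with no such overlap is not given, so nothing is read from the number 7. The differences spanned a wide range, from 1.55-fold for Cdhr5 to 233-fold for Avil on chow and from 1.59-fold to 418-fold on HFD. Ezr overlapped between genotypes, and Vil1 and Ush1c held few counts everywhere. The 7 were also those called at an edgeR adjusted p below 0.05, of 8 tested, on each diet. Over all genes, 12.9% of the counts table and 13.3% of the second table were called higher in LKO on chow, and 10.3% and 10.8% on HFD. Since the list was made with this contrast known, nothing is read from the count. The median log2 difference over the 8 members was 2.08 on chow and 2.51 on HFD, beside 0.02 and -0.01 over all tested genes of the counts table. Avil, Pls1, Myo7b and Cdhr2 passed the filter on low counts through their LKO libraries, and Vil1 and Ush1c, low in both genotypes, were left out. Nothing is therefore read from these medians either.

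**Figure D1:**
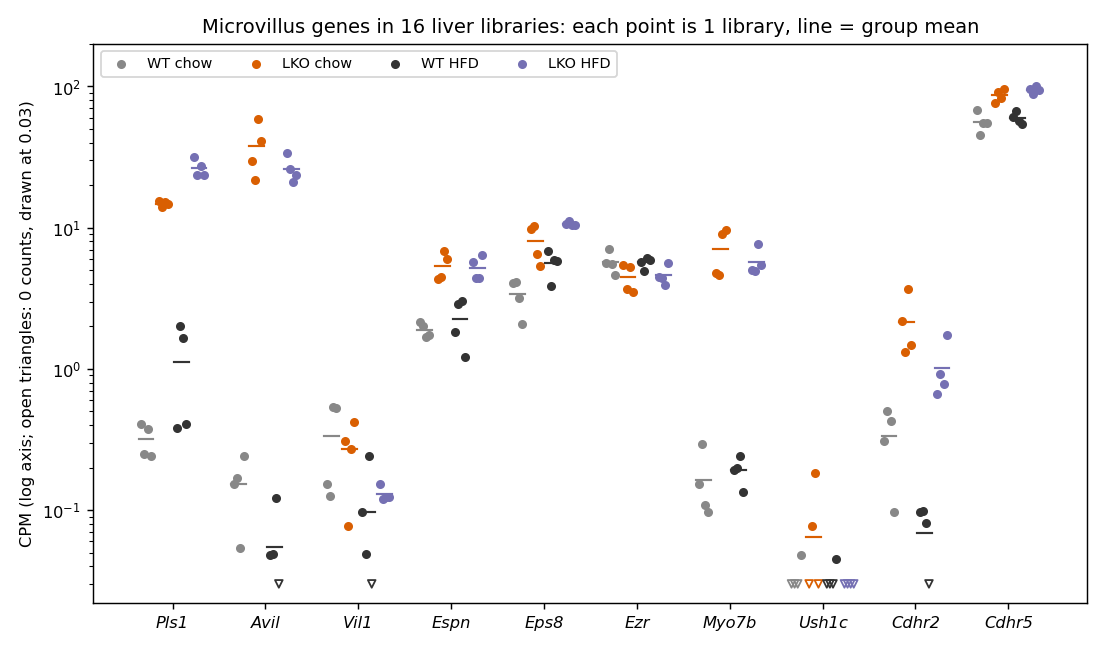
Level of each of the 10 genes in each of the 16 libraries, in CPM on a log axis. Each point is 1 library, short lines are group means and open triangles are libraries with 0 counts, drawn at 0.03. LKO libraries lie above WT libraries on both diets for Pls1, Avil, Espn, Eps8, Myo7b, Cdhr2 and Cdhr5, whereas Ezr and Vil1 overlap.

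Among the bundlers, Avil in WT and Pls1 in WT on chow were near the detection limit. Pls1 was clearly above it in WT HFD libraries 2 and 3, and both genes were readily measured in LKO. Pls1 encodes plastin 1 (fimbrin), which cross-links actin filaments in intestinal microvilli and in the stereocilia of the inner ear. On GRCm38 the gene spans chr9:95752642-95845311 on the - strand. In WT on chow, Pls1 was at 0.409, 0.251, 0.377 and 0.241 CPM in libraries 1 to 4, and in LKO on chow at 15.4, 14, 15.3 and 14.6 CPM. On HFD it was at 0.384, 2.02, 1.65 and 0.406 CPM in WT and at 31.8, 23.6, 27.4 and 23.7 CPM in LKO. The LKO chow libraries were close together, and the WT HFD libraries fell into a higher pair (2 and 3) and a lower pair (1 and 4) at the chow level. The log2 fold change of LKO against WT was 5.53 (SE 0.391) on chow and 4.56 (SE 0.326) on HFD. The summed Pls1 counts, 26 in WT and 1325 in LKO on chow, gave a ratio of 47.0 with an exact 95% interval of 31.9 to 72.3, which covers counting error only. On HFD, with 99 and 2457 counts, the ratio was 23.4 (19.2 to 29.0).

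Avil encodes advillin, a relative of villin and gelsolin best known from sensory neurons and from tuft cells. The gene spans chr10:127000709-127020994 on the + strand. In WT livers it was represented by 13 counts in all 4 chow libraries together and by 5 counts on HFD, where replicate 4 held none; at that depth 0 counts allow up to 0.136 CPM. In LKO it was at 29.8, 21.9, 58.9 and 41.3 CPM on chow and at 33.7, 25.9, 21.0 and 23.7 CPM on HFD. LKO chow libraries 3 and 4 were the highest of the 16. The log2 fold change was 7.87 (SE 0.415) on chow and 8.71 (SE 0.474) on HFD. The latter was 9.45 without WT HFD replicate 3, which held the most Avil counts of its group. The ratio of summed counts was 236 (exact 95% interval 138 to 444) on chow and 453 (194 to 1395) on HFD.

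Exons of Avil share bases with those of Tsfm on the opposite strand, and whether counting used the strand is not given in the sources used here. Tsfm, which encodes a mitochondrial translation elongation factor, was at 13 CPM in WT and 13.3 in LKO on chow, and at 14 and 12.4 on HFD, with log2 changes of 0.03 (edgeR adjusted p = 0.918) and -0.17 (0.387). The higher Avil level in LKO was thus not accompanied by a called change of the overlapping gene.

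Espn encodes espin, which packs actin filaments tightly in microvilli and stereocilia, and it differed less. It was at 2.15, 2.01, 1.67 and 1.74 CPM in WT on chow and at 4.32, 4.47, 6.79 and 5.99 CPM in LKO on chow. On HFD it was at 1.83, 2.90, 3.03 and 1.22 CPM in WT and at 5.67, 4.42, 4.40 and 6.39 CPM in LKO. Every LKO library lay above every WT library, and the log2 fold change was 1.5 (SE 0.253) on chow and 1.21 (SE 0.248) on HFD.

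Vil1, which encodes villin, the bundling and severing protein that typifies the intestinal brush border, did not follow Pls1 and Avil. Its summed counts were 27 in WT and 23 in LKO on chow and 9 and 12 on HFD, giving LKO to WT ratios of 0.785 (0.43 to 1.42) and 1.26 (0.486 to 3.38). Both intervals include 1 and lie below the ratios seen for Pls1 and Avil, but they cover counting error only. Exons of Vil1 share bases with those of Usp37 on the opposite strand, and reads of the pair cannot be told apart without strand. Usp37, which encodes a deubiquitinase, was at 9.47 CPM in WT and 11.9 in LKO on chow (log2 change 0.33, edgeR adjusted p = 0.0374) and at 9.81 and 10.1 on HFD (0.03, 0.876). The part of Usp37 in the Vil1 counts was not tested, so the intervals hold only for the counts as assigned to Vil1.

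At the tip of the core, Eps8 encodes an actin-capping and bundling protein that regulates microvillus length. Its levels were 4.09, 4.15, 3.17 and 2.08 CPM in WT on chow and 9.74, 10.3, 6.56 and 5.36 CPM in LKO on chow. On HFD they were 6.82, 3.88, 5.93 and 5.78 CPM in WT and 10.6, 11.2, 10.5 and 10.4 CPM in LKO. The genotypes did not overlap within a diet, and LKO chow libraries 3 and 4 were here the lowest of their group, the opposite of Avil. The log2 fold change was 1.25 (SE 0.232) on chow and 0.93 (SE 0.223) on HFD.

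Ezr encodes ezrin, the linker between the actin core and the membrane in many epithelia. It was at 5.69 ± 1.01 CPM in WT and 4.49 ± 1.02 in LKO on chow, and at 5.68 ± 0.532 and 4.60 ± 0.708 on HFD (SD, n = 4). The libraries of the genotypes overlapped on both diets, with log2 differences of -0.34 (SE 0.178) and -0.31 (SE 0.177). Ezr was thus the only member of the 8 tested whose log2 difference was below 0. Its exons share bases with those of Sytl3 on the opposite strand, which was at 0.269 CPM in WT and 0.235 in LKO on chow and at 0.199 and 0.42 on HFD.

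The tip adhesion complex was unevenly represented. Myo7b encodes the motor that carries and holds the complex at microvillus tips, and it lies on chromosome 18. It was at 0.153, 0.293, 0.108 and 0.0966 CPM in WT on chow and at 4.80, 4.63, 9.07 and 9.56 CPM in LKO on chow. On HFD it was at 0.192, 0.197, 0.242 and 0.135 CPM in WT and at 5.01, 4.97, 7.62 and 5.44 CPM in LKO. LKO chow libraries 3 and 4 were again the highest, as for Avil. The log2 fold change was 5.33 (SE 0.364) on chow and 4.86 (SE 0.354) on HFD, and the ratio of summed counts was 40.2 (exact 95% interval 23.8 to 74.0) and 30.0 (18.6 to 51.9).

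Cdhr2 encodes one of the tip protocadherins. It was at 0.307, 0.503, 0.430 and 0.0966 CPM in WT on chow and at 2.20, 1.31, 3.68 and 1.47 CPM in LKO on chow. On HFD it was at 0.0962, 0.0983, 0.0807 and 0 CPM in WT, where the 4 libraries together held 6 counts, and at 0.664, 0.915, 0.781 and 1.73 CPM in LKO. The genotypes did not overlap on either diet, although the lowest LKO HFD library (0.664 CPM) was close to the highest WT chow library. The ratio of summed counts was 6.35 (exact 95% interval 4.26 to 9.81) on chow and 15.3 (6.76 to 42.6) on HFD, and the log2 fold change 2.66 (SE 0.481) and 3.81 (SE 0.626).

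Cdhr5, its binding partner on the neighbouring microvillus, had the highest level per exon length in every group. It was at 68.1, 45.1, 55.0 and 55.2 CPM in WT on chow and at 76.3, 91.6, 82.7 and 96.0 CPM in LKO on chow. On HFD it was at 60.5, 66.8, 56.9 and 53.8 CPM in WT and at 96.6, 87.8, 100.3 and 94.7 CPM in LKO. Its log2 fold change was the smallest of the 7, at 0.63 (SE 0.113) on chow and 0.67 (SE 0.113) on HFD.

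Ush1c, the scaffold harmonin, was hardly detected. It had 1 count in WT and 6 in LKO on chow (4 of them in replicate 3 and 2 in replicate 2), a ratio of 5.53 with an exact 95% interval of 0.671 to 254. On HFD it had 1 count in WT and 0 in LKO, where 0 counts allow up to between 0.119 and 0.153 CPM per library. Of the other partners of the complex, Anks4b, a scaffold that binds harmonin and myosin VIIb, was at 108 ± 24.9 CPM in WT and 70.3 ± 9.25 in LKO on chow (log2 change -0.62, edgeR adjusted p = 0.00689), and did not pass the test on HFD (-0.31, 0.178). Calml4, a light chain of myosin VIIb named here although the rule for naming genes did not pick it, had log2 differences of 1.04 (edgeR adjusted p = 0.0556) and 0.62 (0.300).

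**Figure D2:**
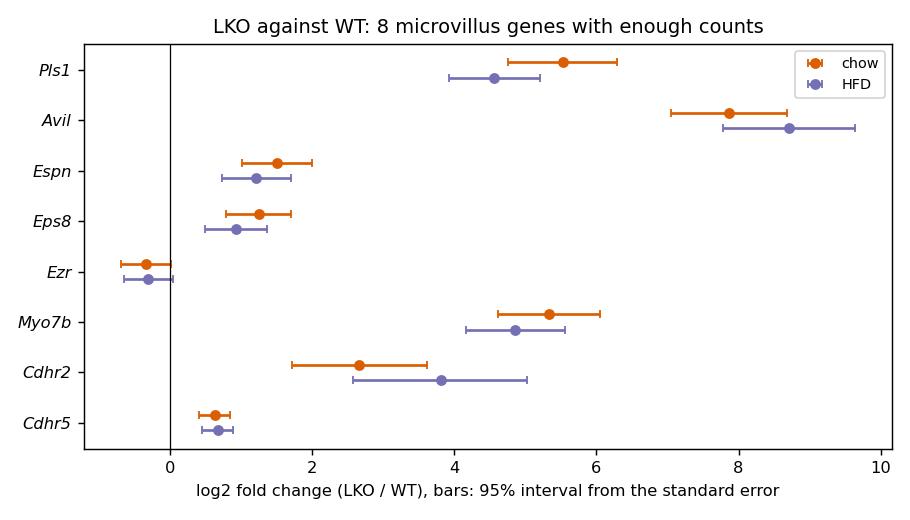
Log2 fold change of LKO against WT for the 8 genes with enough counts, on chow and on HFD. Points are edgeR estimates and bars are 95% intervals from the standard error. Avil, Pls1 and Myo7b lie above 4 on both diets, Espn, Eps8 and Cdhr5 lie between 0.6 and 1.5, and the bars of Ezr cross 0.

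Divided by exon length, the order of the members changed with genotype. In WT on chow, Cdhr5 came first at 20.4 CPM per kb, followed by Ezr at 1.73, Eps8 at 0.273 and Espn at 0.229. Vil1, Pls1, Cdhr2, Avil and Myo7b followed between 0.0949 and 0.0246 CPM per kb, where neighbours in the order overlapped in their libraries. In LKO on chow, Cdhr5 (31.6 CPM per kb) was followed by Avil at 11.2 and Pls1 at 3.81, which did not overlap with each other or with Ezr below them at 1.37. Myo7b (1.06), Espn (0.652), Eps8 (0.647) and Cdhr2 (0.524) came next, each overlapping with the one above. In LKO on HFD, Avil (7.68) and Pls1 (6.85) overlapped, and Ezr (1.40) again followed them. Vil1 and Ush1c were last in both LKO groups.

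For these genes no difference between diets passed the test. None of the 8 tested members passed the edgeR test for HFD against chow in WT or in LKO, while 2.04% and 2.22% of the genes of the counts table did (1.95% and 2.17% of the second table). In WT, few counts were summed on chow and HFD for Avil (13 and 5), Myo7b (14 and 17), Cdhr2 (28 and 6) and Pls1 (26 and 99). These genes passed the filter through their LKO libraries, so the lack of calls in WT does not show that diet has no effect there. At an unadjusted edgeR p below 0.05 there were 3 members in WT (Pls1, Eps8 and Cdhr2) and 3 in LKO (Pls1, Avil and Cdhr2). DESeq2 called 1 in each genotype, and limma voom called 0 in WT and 3 in LKO. The shares of all genes at the unadjusted threshold or with these tools are not given, so nothing is read from these numbers. The diets were tested across libraries that the genotype comparison also used, so both sets of differences share data.

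Pls1 had positive log2 differences between diets in both genotypes. In WT its mean was 0.320 ± 0.0857 CPM on chow and 1.12 ± 0.844 on HFD (SD, n = 4), a log2 difference of 1.81 (SE 0.48, edgeR adjusted p = 0.0625), carried by WT HFD libraries 2 and 3. Without WT HFD replicate 1 it was 2.08 (adjusted p = 0.0164), and without replicate 4 it was 2.09 (0.0175). In LKO the mean was 14.8 ± 0.640 CPM on chow and 26.6 ± 3.87 on HFD, and the libraries did not overlap, but the log2 difference of 0.85 (SE 0.259) did not pass (edgeR adjusted p = 0.0994). It passed with DESeq2 (adjusted p = 0.0437), with limma voom (0.00754) and in a fit of the LKO libraries alone (0.00617). Eps8 pointed the same way, with log2 differences of 0.73 (SE 0.235, edgeR adjusted p = 0.124) in WT and 0.41 (SE 0.219, 0.342) in LKO. Cdhr2 pointed the other way, at -2.21 (SE 0.711, edgeR adjusted p = 0.125) in WT and -1.07 (SE 0.422, 0.195) in LKO.

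**Figure D3:**
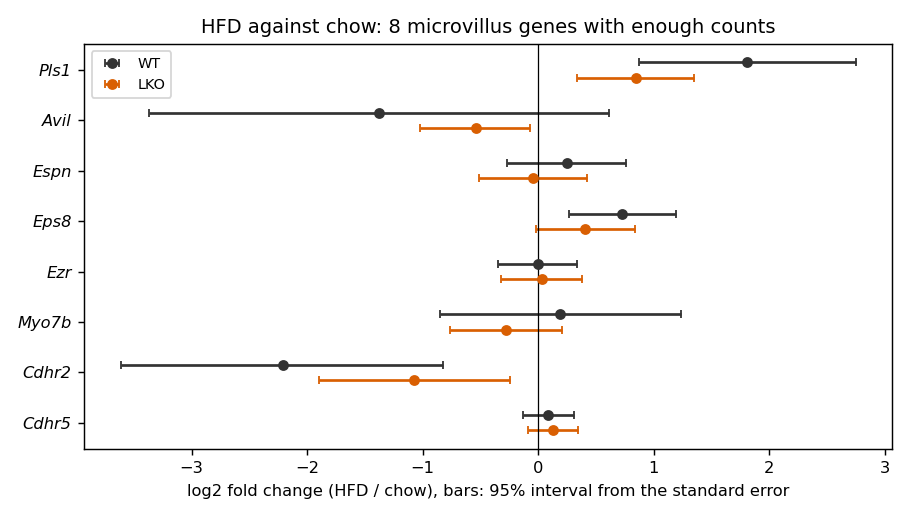
Log2 fold change of HFD against chow for the 8 genes with enough counts, in WT and in LKO. Points are edgeR estimates and bars are 95% intervals from the standard error. Pls1 lies above 0 and Cdhr2 below 0 in both genotypes, and Espn, Ezr and Cdhr5 lie within 0.3 of 0.

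For Avil the log2 difference between diets was -1.38 (SE 1.02, edgeR adjusted p = 0.588) in WT, where it rested on 13 and 5 counts, and -0.54 (SE 0.242, 0.256) in LKO. The remaining members lay near 0 in both genotypes, with edgeR adjusted p of 0.738 or more in WT and 0.581 or more in LKO. These were Myo7b at 0.19 and -0.28, Espn at 0.25 and -0.04, Ezr at -0.00 and 0.03, and Cdhr5 at 0.09 and 0.13. The interaction of genotype and diet uses the same contrasts as the choice of the members, so nothing is read from its count. With edgeR 0 of 8 members were called and 0 had an unadjusted p below 0.05, and DESeq2 and limma voom called 0, beside 0.0208% of the genes of the counts table and 0.0203% of the second table.

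The split among the LKO chow libraries touched some members and not others. The chow genotype difference of Pls1 was 5.54 without LKO chow libraries 1 and 2 and 5.52 without libraries 3 and 4 (log2). That of Myo7b was 5.74 and 4.76, that of Avil 8.26 and 7.31, that of Espn 1.75 and 1.21 and that of Eps8 0.82 and 1.57. Cdhr2 was at 2.91 and 2.36, Cdhr5 at 0.68 and 0.59 and Ezr at -0.37 and -0.32. The 7 genes above WT stayed above it in both cases. The diet difference in LKO depended on the pair kept. Without libraries 1 and 2, Avil was lower on HFD at -0.94 (edgeR adjusted p = 0.00437), Myo7b was lower at -0.69 (0.0433) and Eps8 higher at 0.84 (0.0231). Without libraries 3 and 4, the differences of Avil, Myo7b and Eps8 were 0.01, 0.29 and 0.09 (edgeR adjusted p = 0.914 for Eps8). The other 5 members did not pass in either case, with differences of 0.84 and 0.86 for Pls1, -1.32 and -0.77 for Cdhr2, -0.29 and 0.25 for Espn, 0.06 and 0.01 for Ezr and 0.09 and 0.18 for Cdhr5. What sets these libraries apart was not tested.

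Markers of other cells with microvilli were set beside the members. The 12 bile duct markers summed to 51.6 to 62.2 CPM in WT and 50.6 to 71.5 in LKO on chow, and to 56.0 to 80.9 and 47.4 to 64.1 on HFD, and 1 of the 8 tested was called higher in LKO on each diet. The 9 tuft cell markers summed to 13.2 to 27.4 CPM in WT and 12.6 to 26.1 in LKO on chow, with Il25 at 0 in all libraries, and to 20.7 to 32.5 and 19.1 to 27.7 on HFD. Ptgs1 made up most of the tuft sum, at means of 20.5 CPM in WT and 18.5 in LKO on HFD. In WT on chow it was at 14.4 CPM. Only 2 of the 9, Ptgs1 and Plcb2, had enough counts to be tested. Neither was called in the counts table on either diet, and 1 was lower in LKO on HFD in the fit of the second table. The mesothelial markers gave 2.37 to 6.35 CPM in WT and 2.0 to 6.85 in LKO on chow and 2.51 to 4.47 and 1.53 to 5.85 on HFD, with 0 of 5 called.

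The 8 enterocyte markers summed higher in LKO, from 48.4 to 83.9 CPM in WT and from 72.9 to 157 in LKO on chow, and from 108 to 140.4 and from 152 to 185 on HFD. Of these, Cdx1, Cdx2, Gpa33 and Alpi were at 0 in every library. The sum was made up mainly of Fabp2, a fatty acid binding protein, and Lgals4, a galectin, both called higher in LKO on chow (log2 change 0.75 and 1.22, edgeR adjusted p = 0.0103 and 0.00227), and Lgals4 also on HFD (0.93, 0.0178). The part of these cell types in the members' levels was not tested.

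Among 102 other genes of microvilli, bile canaliculi and brush borders, in 8 lists, 84 were tested, and they moved in both directions. In LKO on chow 17 rose and 16 fell (20.2% and 19%, beside 12.9% and 11.8% of all tested genes), with a median log2 change of 0.07. The number of calls on chow, 33 in all, was 43 without LKO chow libraries 1 and 2 and 25 without libraries 3 and 4. The shares of all genes called without these libraries are not given, so nothing is read from that change. On HFD 15 rose and 9 fell (17.9% and 10.7%, beside 10.3% and 7.57%), with a median of 0.03. The genes called on both diets numbered 19, and each had the same direction on both. All adjusted p-values in what follows are from edgeR over all genes of the counts table. The lists were chosen with earlier results of these data known, so their shares and p-values are a description and not independent evidence.

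Among the other bundlers and gelsolin relatives, 2 of 10 rose and 2 fell on chow, and 1 rose and 0 fell on HFD. Espnl, a relative of espin, rose from 0.499 ± 0.214 to 4.06 ± 0.833 CPM on chow (log2 change 2.99, adjusted p = 5e-06) and from 0.182 ± 0.125 to 2.34 ± 0.512 on HFD (3.64, 3.79e-06). Vill, a villin-like protein, rose on chow (1.38, 0.00312). Pls3, the widely expressed plastin, fell on chow from 123 ± 13.6 to 93.0 ± 11.3 CPM (-0.41, 0.00642), opposite to Pls1, and Svil, which encodes supervillin, fell too (-0.75, 0.0151).

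Of the ezrin relatives, scaffolds and kinases, 1 of 8 rose and 1 fell on chow. Pdzk1, an apical scaffold, rose on both diets (0.38 and 0.56, adjusted p = 0.0061 and 0.000327). Nf2, which encodes merlin, fell on both (-0.39 and -0.29, 0.00197 and 0.0185), and Nherf2, another apical scaffold, fell on HFD (-0.39, 0.00832). Of the EPS8 relatives and actin regulators, 2 of 10 rose and 2 fell on chow, and 2 rose and 1 fell on HFD. Eps8l2 rose from 52.2 ± 10.8 to 119 ± 17.0 CPM on chow (1.19, 0.000286) and by 0.98 on HFD (0.00181). Twf2, a twinfilin that regulates actin filament ends, rose on both diets (1.42 and 1.12, adjusted p = 2.72e-05 and 0.000295), and Baiap2, a membrane-bending partner of EPS8, fell on both (-0.55 and -0.81, 0.0212 and 0.0025).

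Of the other myosins, 1 of 12 rose and 2 fell on chow, and 2 rose and 2 fell on HFD. Myo15a, the motor that carries EPS8 to stereocilia tips in hair cells, rose from 0.185 ± 0.161 to 3.18 ± 1.71 CPM on chow (log2 change 4.07, adjusted p = 6.53e-05) and from 0.274 ± 0.13 to 2.11 ± 0.898 on HFD (2.91, 0.000993). Myo1d, a motor that links actin to membranes, fell on chow from 32.1 ± 2.76 to 23.9 ± 3.59 CPM (-0.42, adjusted p = 0.00683). Of 8 tested partners of the adhesion and Usher complexes, 1 rose and 1 (Anks4b) fell on chow, and 1 rose and 0 fell on HFD.

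**Figure D4:**
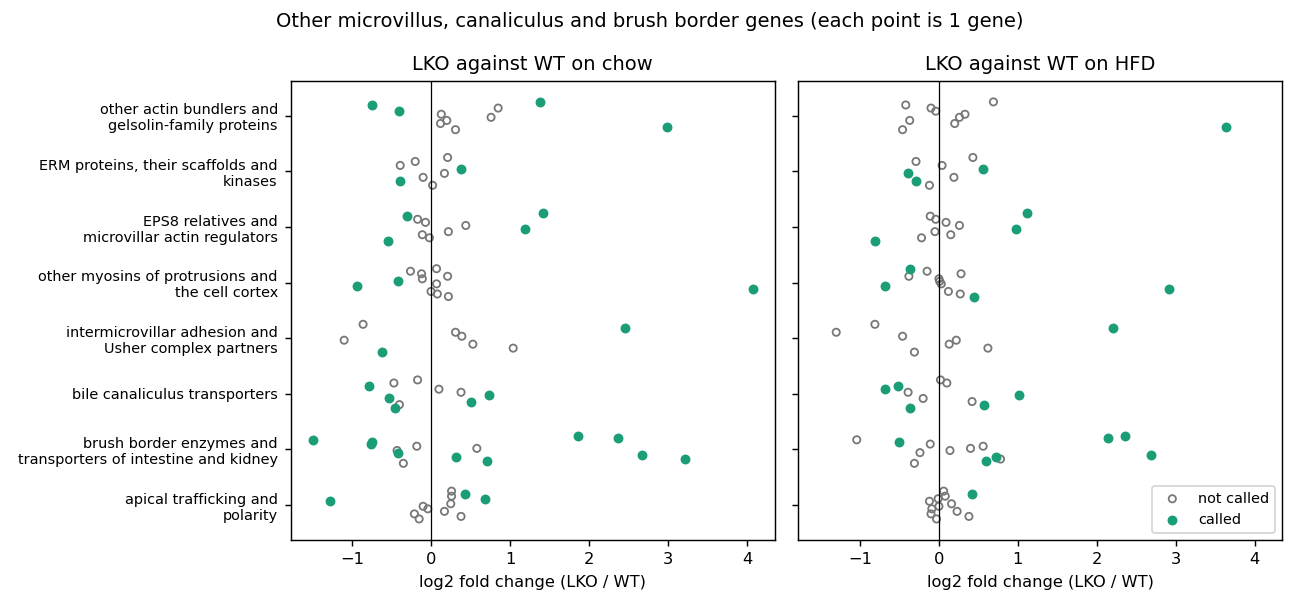
Log2 fold change of LKO against WT on chow (left) and HFD (right) for the other tested genes in 8 lists. Each point is 1 gene, and filled points passed the edgeR test at an adjusted p below 0.05. Of the 84 genes, 17 rose and 16 fell on chow, and 15 rose and 9 fell on HFD.

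The bile canaliculus, where hepatocytes carry their own apical microvilli, was represented by 10 transporters, of which 2 rose and 3 fell on each diet. Abcg2, an exporter of drugs and urate, rose from 29.7 ± 3.35 to 49.3 ± 1.76 CPM on chow (0.73, adjusted p = 1.05e-05) and from 40.0 ± 2.19 to 80.9 ± 5.74 on HFD (1.02, 2.94e-07). The bile salt export pump Abcb11 fell on both diets (-0.46 and -0.37, adjusted p = 0.00334 and 0.0186), as did the copper transporter Atp7b (-0.78 and -0.52, 3.99e-06 and 0.000308). With diet the sterol transporters moved most. Abcg5 rose on HFD by 2.09 in WT and 1.32 in LKO (adjusted p = 5.38e-06 and 0.00114) and Abcg8 by 1.87 and 1.09 (5.38e-06 and 0.0018).

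Of the enzymes and transporters typical of the intestinal and renal brush border, 6 of 14 rose and 4 fell on chow, and 5 rose and 1 fell on HFD. The sodium-glucose transporter Slc5a1 rose from 2.07 ± 0.257 to 10.7 ± 4.57 CPM on chow (2.37, adjusted p = 5.96e-05) and from 2.35 ± 1.06 to 10.4 ± 2.08 on HFD (2.14, 0.000161). Cubn, which encodes cubilin, a receptor for protein uptake, rose on both diets (2.67 and 2.69, adjusted p = 0.000404 and 0.00042), and its membrane anchor Amn rose on chow from 0.0609 ± 0.0244 to 0.612 ± 0.0893 CPM (3.22, 0.000215). The WT chow mean of Amn lies below the level that 3 counts give, 0.126 to 0.161 CPM per library. On HFD its genotype difference of 0.78 did not pass (adjusted p = 0.186). Within WT, Amn was higher on HFD than on chow (2.28, adjusted p = 0.0447). Mgam, a starch-digesting enzyme, fell on chow (-0.76, adjusted p = 0.00172). Of the apical trafficking and polarity genes, Stxbp2, a partner of syntaxin in apical secretion, rose on both diets (0.43 and 0.42, adjusted p = 0.00311 and 0.00452). On chow Strada, a partner of the polarity kinase LKB1, rose as well (0.68, 0.00297), and Stk26, a kinase that phosphorylates ezrin, fell (-1.28, 0.0455).

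The genes whose pattern over the 16 libraries was nearest to each member were found as the smallest root mean square difference of centred log2 CPM among 12821 candidates with a mean of at least 1 CPM (12822 for Vil1, Ush1c and Cdhr2). The nearest to Pls1 was Mup20, a major urinary protein, at 0.528. Mup20 was at 49.0, 148, 142 and 53.3 CPM in the WT HFD libraries, with libraries 2 and 3 the higher pair as for Pls1. The nearest to Myo7b was Ly6a, a surface antigen, at 0.385, followed by the citrate transporter Slc13a5 at 0.513. The nearest to Avil were Dnah5 (0.779), an axonemal dynein, and Cyp4a12a (0.894), a fatty acid hydroxylase. Cdhr2 was nearest to Lcn12 (0.505), Cdhr5 to Mdm2 (0.105), Eps8 to Wdfy4 (0.223), Espn to Alkbh6 (0.268) and Ezr to Xpo4 (0.162). Pls1 and Myo7b differed by 0.814, which is farther than Myo7b was from Ly6a. The measure is a description of these libraries.

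The members lie on separate chromosomes, except Ush1c and Cdhr5 on chromosome 7, and most of their direct neighbours that were tested did not follow them. Others had too few counts to be tested. Of these, Eef1akmt3, 10010 bases from Avil, was at 0.116 CPM in WT and 0.489 in LKO on chow. On chow Hes2, 6496 bases from Espn, was at 0.0483 and 0.141, and Sct, 1544 bases from Cdhr5, at 0.0508 and 0.021. Gprin1, 9 bases from Cdhr2, was at 0 and 0.0113. Lims2, 615 bases from Myo7b, was at 53.2 CPM in WT and 57.6 in LKO on chow (log2 change 0.11, edgeR adjusted p = 0.581). Ctdsp2, 734 bases from Avil, differed by 0.27 (edgeR adjusted p = 0.138), and Trpc1, 2267 bases from Pls1, by 0.18 (0.765). Atr, on the other side of Pls1, fell on both diets (-0.52 and -0.64, edgeR adjusted p = 0.00867 and 0.00216). Next to Cdhr5, Irf7, an interferon regulatory factor 2602 bases away, rose from 36.2 to 139 CPM on chow (log2 change 1.94, edgeR adjusted p = 5.78e-06) and from 51.6 to 152 on HFD (1.56, 5.55e-05).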

How the data were processed

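Liver poly(A) libraries were sequenced as paired NovaSeq reads, per the labels' protocols. What the authors deposited, per gene symbol, are estimated counts (also called expected counts) without normalisation; 51.1% were whole at a tolerance of 1e-06, and all were rounded here. The submitters' processing notes name mm10, Bowtie2 and DESeq2; the counting tool and annotation are not given in the sources used here. A second deposited table of 35712 genes holds the same estimated counts, with its 8 chow columns 1 row low: moved up, 15115 of 15119 genes were equal in all 16 libraries (relative tolerance 1e-05), against 1 on chow as deposited.

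Total counts per library ran from 19142612 to 25120565; low counts carry exact 95% intervals or a floor of 3 counts, which cover counting error only. Counts were fitted with edgeR 4.0.16 in R 4.3.3 (TMM, filterByExpr, robust quasi-likelihood, 1 mean per group over 16 libraries), separately per table (14434 and 14762 genes tested), with 2-sided tests and Benjamini-Hochberg adjustment over all genes; called means an adjusted p below 0.05. DESeq2 1.42.0, limma 3.58.1 (voom), other scalings and filters, a replicate block and leaving out libraries were alternatives. The fit was checked on simulated counts with 200 genes changed 2-fold in LKO on chow. That setting does not cover changes as large as those of Avil, Pls1 and Myo7b. Coordinates are GENCODE M21, GRCm38; promoters are RefSeq, GRCm38.p6, without entries for Eps8 and Myo7b.

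Members and lists were chosen with earlier results of these data known. Besides the 10 members, the text names in each list up to 4 called genes of lowest p per genotype contrast and up to 2 per diet contrast, and for each member the nearest genes by pattern; neighbours, markers and Calml4 are named outside that rule. A few genes that the rule picks are not reported here by name.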

Additional observations from a re-analysis of the deposited data

Results flagged for a closer look

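In 39 groups of 4 libraries examined (each member in each group, where its values varied), 3 had a library far from the others by Dixon's criterion, and chance gives about 1 group in 20. All 3 are genes that did not pass the filter on low counts. Vil1 in LKO on HFD had its highest library at 0.153 CPM (replicate 1), although each of the 4 libraries held 3 counts, so the gap comes from library size. Ush1c had a single count in replicate 4 of WT on chow (0.0483 CPM) and in replicate 4 of WT on HFD (0.0452 CPM), with 0 in the other libraries of those groups.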

How the results depend on the processing

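The differences between genotypes kept their direction and their side of the threshold for the 8 tested members in 426 of 426 recomputed values. Of the diet and interaction differences, 582 of 625 did. The members were chosen with the genotype differences known, and some fits left out only libraries of groups not compared. Nothing is therefore read from the 426. The number of members called for diet was 1 with DESeq2 in WT and ranged from 0 to 1 when a library was left out. In LKO it was 1 with DESeq2, 3 with limma voom, 1 in a fit of the groups compared alone and 3 without LKO chow libraries 1 and 2. The number of other microvillus and brush border genes called for diet in WT (7) was 4 in a fit of the groups compared alone and 4 to 8 when a library was left out, the lowest without WT chow replicate 1, WT HFD replicate 2 or WT HFD replicate 3. In LKO (9) it was 24 with limma voom, 4 in a fit of the groups compared alone, 4 to 10 when a library was left out (5 or fewer without LKO chow replicate 3 or 4 or LKO HFD replicate 1, 2 or 4), 27 without LKO chow libraries 1 and 2 and 4 without libraries 3 and 4. The shares of all genes called under these alternatives are not given, and the causes were not tested.

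Some differences with no call changed sign. Without LKO chow libraries 3 and 4, the log2 diet differences in LKO were 0.29 for Myo7b, 0.01 for Avil and 0.25 for Espn, and the interactions 0.10 for Myo7b and 0.00 for Espn. Without libraries 1 and 2, the interactions were 0.11 for Eps8 and -0.00 for Cdhr5. For Ezr the diet difference in WT was 0.05 with limma voom, 0.02 with upper-quartile scaling, 0.00 at a mean count of at least 50 and 0.00 in a fit of the groups compared alone; with upper-quartile scaling it was -0.01 in LKO and the interaction -0.03, as was that of Cdhr5 (-0.03). Leaving out 1 library gave -0.16 to 0.09 for Espn on diet in LKO, -0.09 to 0.11 and -0.08 to 0.14 for Ezr on diet in WT and LKO, -0.01 to 0.20 for Cdhr5 in WT, and interactions of -0.09 to 0.14 for Ezr and -0.07 to 0.12 for Cdhr5.

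Replicate numbers were not taken to pair libraries: 6 of 24 correlations between same-numbered libraries exceeded 0.1 (median -0.023). With the replicate number as a block, 7 members were called for genotype on each diet and 0 for diet in either genotype, and the other genes called numbered 32 and 22 for genotype and 5 and 5 for diet in WT and LKO. The shares of all genes called with the block are not given, so nothing is read from these counts. With few counts in WT, the size of the Avil, Pls1, Myo7b and Cdhr2 differences is known only within the intervals given.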
